A study of Mus musculus with 24 samples.

Results

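The Bcl2 family genes described here were 10: the anti-apoptotic Bcl2, Bcl2l1 (Bcl-xL) and Mcl1, the BH3-only genes Bcl2l11 (Bim), Bmf, Bbc3 (Puma), Pmaip1 (Noxa) and Bad, and the effectors Bax and Bak1. They were chosen by gene symbol, and all 10 were found among the 35022 genes counted in 1 experiment and the 48709 genes counted in the other. RNA was sequenced from E14 mouse embryonic stem cells (mESCs; strain label 129m wt), a wild-type line that grows as an undifferentiated culture, so the groups model a single line. The cells were kept for 12 h in 2i + LIF while attached to StemBond hydrogels, either soft or stiff, which carried fibronectin in every group. 2i joins PD03, an inhibitor of MEK (1 µM), and CHIRON, an inhibitor of GSK3 that raises Wnt output (3 µM), and LIF is a cytokine that maintains mESCs. In the first experiment PD03 was withdrawn, which left CHIRON + LIF. In the second CHIRON was withdrawn, which left PD03 + LIF. Lysates were taken at 0 h, still in 2i + LIF, and at 2 h and 12 h after withdrawal, with 2 libraries for each of 6 groups per experiment.

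Proteins of the Bcl2 family decide whether the outer mitochondrial membrane is breached. Bax and Bak1 form the pore that releases cytochrome c, Bcl2, Bcl2l1 and Mcl1 hold them in check, and the BH3-only proteins bind the guardians or engage the effectors directly. ERK, the kinase below MEK, is known to mark Bim for degradation, so transcript levels give only part of the regulation of this family. The withdrawal of PD03 lets ERK signal again, and pluripotent stem cells are known to lie close to the threshold of mitochondrial apoptosis.

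The 12 libraries of PD03 removal held 16222196 to 26442153 counts each, and the 11 used of CHIRON removal 19393787 to 31111260. The stiff 2 h library that the study discarded held 171333 counts, so stiff at 2 h of CHIRON removal rested on 1 library, which was assumed to vary like the other groups. Summed stem cell markers lay between 3720 and 4652 CPM (counts scaled to a common library size) in all 23 libraries. Markers of primitive endoderm summed to 2.28 to 8.08 CPM, those of trophoblast to 16.2 to 40.0 CPM and those of fibroblasts to 1.03 to 6.82 CPM, and no marker was at 0 in every library. In the mESC cultures, fewer cells that express a gene and less RNA per cell cannot be told apart. Withdrawal was visible in the pathway targets: 6 of 7 ERK output genes had risen 2 h after PD03 removal on each substrate. On each substrate 6 of 7 Wnt output genes had fallen and 1 had risen 12 h after CHIRON removal, led by Sp5 with log2 fold changes of −6.07 (soft) and −5.78 (stiff). The lists also moved under the other withdrawal at 12 h. After CHIRON removal 4 ERK output genes fell on soft and 3 on stiff, and after PD03 removal 4 Wnt output genes rose and 1 fell on each substrate.

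Promoter sequences are printed for the members whose levels moved and whose windows held a searched motif, to show the letters before their start sites. Windows around RefSeq starts (GRCm38.p6) were searched for 9 of the 10 members, 17 windows in all. Each reached from 250 bases before to 50 bases after a start. No window of Pmaip1 was searched, so whether its promoter holds any of these motifs was not tested. The letters searched on both strands were TGTTTAC (FOXO, in 3.65% of 32851 windows of all genes), CTTTGAT (TCF/LEF, 3.73%), TGACTCA (AP-1, 5.2%), CCGGAAG (ETS, 8.86%) and CACGTG (E-box, 7.15%), and none of these runs of letters overlapped another in the windows printed. Capitals mark the motif. For Bcl2l11 (chr2:128125788-128126037, + strand) they mark the FOXO letters at position −227 and the ETS letters at −105, both as the reverse complement. For Bbc3 (chr7:16310011-16310260, + strand) they mark FOXO at −167, for Mcl1 (chr3:95658471-95658720, + strand) ETS at −63, and for Bcl2l1 (chr2:152831679-152831708, − strand, a stretch of 30 bases) ETS at 35 bases after the start. The window of Bax held 2 E-boxes and another window of Bbc3 held 1, while the other windows of Bcl2l11 and Bcl2l1 held no motif. In all, 6 of the 17 windows held any motif, and the share of all windows that hold any of these motifs was not computed. These matches describe letters, and binding was not measured.
Bcl2l11: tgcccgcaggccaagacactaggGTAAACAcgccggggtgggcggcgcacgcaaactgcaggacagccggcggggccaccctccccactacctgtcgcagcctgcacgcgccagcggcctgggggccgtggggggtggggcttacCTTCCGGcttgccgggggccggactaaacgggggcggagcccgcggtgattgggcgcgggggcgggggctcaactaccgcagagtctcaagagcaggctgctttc
Bbc3: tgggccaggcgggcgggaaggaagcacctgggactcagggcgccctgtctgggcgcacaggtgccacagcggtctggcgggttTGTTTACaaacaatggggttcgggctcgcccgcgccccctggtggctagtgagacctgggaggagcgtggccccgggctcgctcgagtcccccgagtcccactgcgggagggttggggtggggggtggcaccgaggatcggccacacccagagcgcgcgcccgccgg
Mcl1: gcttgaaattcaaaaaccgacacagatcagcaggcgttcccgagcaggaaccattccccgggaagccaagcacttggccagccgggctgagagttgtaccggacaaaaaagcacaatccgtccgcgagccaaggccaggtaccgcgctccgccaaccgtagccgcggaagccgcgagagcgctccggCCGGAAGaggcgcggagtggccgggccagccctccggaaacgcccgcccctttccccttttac
Bcl2l1: gcgctgccgcggcaCCGGAAGtggctgcgc

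Levels of the members were first compared with each other at 0 h, per kilobase of annotated exon, over the 4 libraries of both substrates. In PD03 removal Mcl1 was highest at 174 ± 3.02 CPM per kb (mean ± SD, n = 4), followed by Bax at 115 ± 1.35 and Bak1 at 48.0 ± 1.12 CPM per kb. Bcl2l1 stood at 22.6 to 25.0, Bbc3 at 7.99 to 10.0, Bad at 4.92 to 6.30 and Pmaip1 at 2.23 to 2.72 CPM per kb. None of these neighbours overlapped in their libraries. Bcl2l11 (1.56 to 1.72 CPM per kb) and Bmf (0.916 to 1.58 CPM per kb) overlapped. Bcl2, the founding member, was at the floor of detection, with 2 to 7 counts per library in PD03 removal and 2 to 18 in CHIRON removal. In PD03 removal 9 members passed the filter on low counts and Bcl2 did not. All 10 passed it in CHIRON removal. Bcl2 held 3 and 2 counts at 0 h on stiff there and passed only through other libraries, so no conclusion is drawn from its fold changes.

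**Figure D1:**
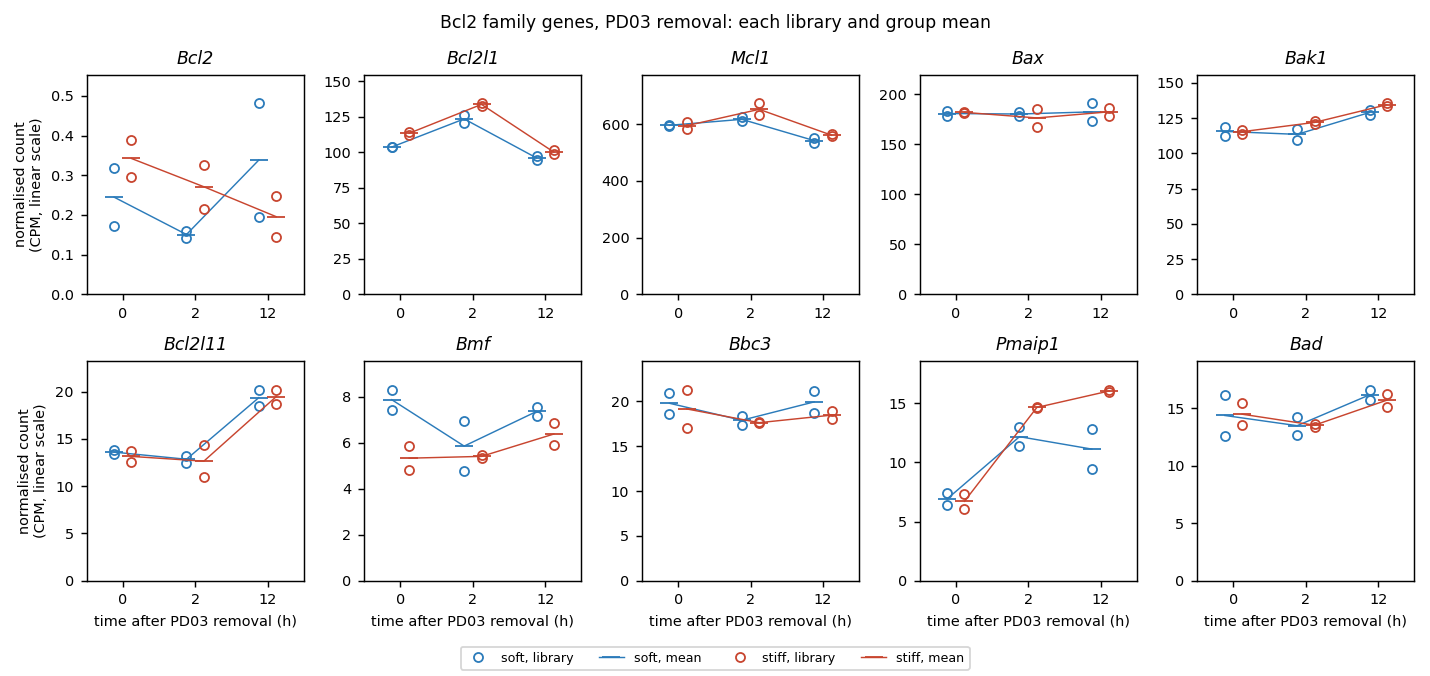
Normalised counts (CPM, linear scale from 0) of the 10 members against hours after PD03 removal, as open circles for each library and dashes for the mean of 2 libraries on soft (blue) or stiff (red) substrates. Pmaip1 stood at 6.09 to 7.34 CPM at 0 h and 14.6 to 16.2 CPM later on stiff, and at 6.41 to 7.42 CPM and then 9.42 to 13.0 CPM on soft, Bcl2l11 rose only at 12 h, and Bax stayed between 167 and 191 CPM.

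The first question was how the family responded when ERK was released by removing PD03. Among 9 members tested, 3 were higher and 1 lower at 12 h than at 0 h on each substrate. Pmaip1, Bcl2l11 and Bak1 were the 3 that rose on both, and Bmf, Bbc3, Bad and Bax, also pro-apoptotic, were not called. Mcl1 was called lower on soft (log2 fold change −0.14, and −0.08 on stiff) and Bcl2l1 on stiff (−0.18, and −0.11 on soft). For neither was a difference in response between substrates called (edgeR adjusted p = 0.92 for both). Over all 13404 genes tested with the quasi-likelihood test of edgeR (Benjamini-Hochberg adjusted p), 14.1% were higher and 15.3% lower on soft, and 18.5% were higher and 19.9% lower on stiff. The 3 members of 9 that rose exceed these shares by fewer than 2 genes, and the 1 that fell is near them. The median log2 fold change of the members was 0.01 on soft and 0.11 on stiff, and that of all genes was −0.0014 and −0.0015. Cell type markers moved at the same time: 4 of 6 stem cell markers fell on each substrate (mean sum from 4383 to 3939 CPM on soft and from 4469 to 3897 CPM on stiff), and both trophoblast markers tested rose on each (mean sum of the list from 21.4 to 35.1 CPM on soft and from 19.4 to 38.0 CPM on stiff). Of 2 primitive endoderm markers tested 1 rose on soft, and of 2 fibroblast markers tested 1 rose on stiff. The part of these changes in the members' values was not tested.

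Among the anti-apoptotic genes, Bcl2l1 moved in both directions within 12 h. On soft its libraries stood at 104 and 104 CPM at 0 h, 121 and 126 CPM at 2 h, and 97.5 and 94.4 CPM at 12 h. On stiff they stood at 112 and 114 CPM, then 134 and 133 CPM, then 98.6 and 101 CPM. The 2 h libraries were above all others on the same substrate and the 12 h libraries below all others. At 2 h the log2 fold change was 0.25 ± 0.05 (SE) on soft (edgeR adjusted p = 0.0043) and 0.24 ± 0.05 on stiff (edgeR adjusted p = 0.0044). From 2 h to 12 h Bcl2l1 fell by 0.36 on the log2 scale on soft (edgeR adjusted p = 4.4e-06) and by 0.42 on stiff (edgeR adjusted p = 2.8e-07). At 12 h it was below 0 h on stiff, with a log2 fold change of −0.18 ± 0.05 (edgeR adjusted p = 0.0068), whereas on soft the value of −0.11 ± 0.05 did not pass (edgeR adjusted p = 0.11). Without stiff 0 h replicate 2 or stiff 12 h replicate 1, the call at 12 h on stiff was lost (edgeR adjusted p = 0.059 and 0.074). The call at 2 h was lost on soft without soft 0 h replicate 1 or soft 2 h replicate 2, and on stiff without stiff 0 h replicate 1.

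Mcl1, the short-lived guardian with the highest level per kilobase in this experiment, changed little in size. Its soft libraries held 594 and 597 CPM at 0 h, 623 and 610 CPM at 2 h, and 551 and 532 CPM at 12 h. On stiff the values were 607 and 582 CPM, 630 and 673 CPM, and 556 and 565 CPM. The 12 h libraries were the lowest on both substrates, with no overlap with 0 h. From 2 h to 12 h the fall was called on both substrates, with log2 fold changes of −0.19 ± 0.04 for soft (edgeR adjusted p = 0.0012) and −0.22 ± 0.04 for stiff (edgeR adjusted p = 0.00019). Against 0 h the log2 fold change was −0.14 ± 0.04 on soft (edgeR adjusted p = 0.015) and −0.08 ± 0.04 on stiff (edgeR adjusted p = 0.12). The soft call was lost without soft 0 h replicate 1, soft 0 h replicate 2 or soft 12 h replicate 2 (edgeR adjusted p = 0.054, 0.09 and 0.16).

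Pmaip1, a BH3-only gene whose product Noxa binds Mcl1, gave the largest change among the members. It rose early. On stiff its libraries stood at 7.34 and 6.09 CPM at 0 h, 14.6 and 14.7 CPM at 2 h, and 15.9 and 16.2 CPM at 12 h. On soft they stood at 7.42 and 6.41 CPM, 13.0 and 11.4 CPM, and 9.42 and 12.8 CPM. Every library after withdrawal was above every library at 0 h on its substrate, and both stiff libraries at 12 h were above both soft libraries. On stiff the log2 fold change was 1.14 ± 0.15 at 2 h (edgeR adjusted p = 6e-06) and 1.27 ± 0.15 at 12 h (edgeR adjusted p = 1e-07), a fold of 2.41. On soft it was 0.82 ± 0.16 at 2 h (edgeR adjusted p = 0.002) and 0.69 ± 0.16 at 12 h (edgeR adjusted p = 0.0013), a fold of 1.61. The change from 2 h to 12 h, −0.13 on soft and 0.13 on stiff, was not called (edgeR adjusted p = 0.54 and 0.49). Without soft 12 h replicate 2 the log2 fold change on soft at 12 h was 0.44 (edgeR adjusted p = 0.088). The soft call at 2 h was lost without soft 0 h replicate 2 or soft 2 h replicate 1 (edgeR adjusted p = 0.061 and 0.079).

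Bcl2l11, whose product Bim can bind all the guardians, rose late, on both substrates. Its soft libraries held 13.8 and 13.4 CPM at 0 h, 13.2 and 12.5 CPM at 2 h, and 20.2 and 18.5 CPM at 12 h. Its stiff libraries held 12.5 and 13.7 CPM, 11.0 and 14.3 CPM, and 18.7 and 20.2 CPM. The 12 h libraries stood clear of all earlier ones. The log2 fold change at 12 h was 0.51 ± 0.12 on soft (edgeR adjusted p = 0.0018) and 0.56 ± 0.12 on stiff (edgeR adjusted p = 0.00055), a fold of 1.42 and 1.47. At 2 h the values were −0.08 ± 0.13 and −0.07 ± 0.13 (edgeR adjusted p = 0.88 for both). Both 12 h calls held in each of the 18 alternatives tried.

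The other BH3-only genes did not pass at either time against 0 h. Bmf, which senses detachment and the cytoskeleton, ranged from 4.78 to 8.31 CPM over the 12 libraries, Bbc3, a p53 target, from 17.0 to 21.3 CPM, and Bad, which is controlled by phosphorylation, from 12.6 to 16.6 CPM. At 12 h the log2 fold changes of Bmf were −0.09 ± 0.17 on soft and 0.24 ± 0.19 on stiff (edgeR adjusted p = 0.73 and 0.33). For Bbc3 they were 0.01 ± 0.11 and −0.04 ± 0.12 (edgeR adjusted p = 0.94 and 0.82), and for Bad 0.17 ± 0.12 and 0.11 ± 0.13 (edgeR adjusted p = 0.31 and 0.54). Bad shares exon positions with Gpr137 on the other strand, which held 124 to 190 counts, and whether counting used strand is not given in the sources used here.

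Of the effectors, Bak1 passed the test and Bax did not. Bak1, which resides on the mitochondrion, held 113 and 119 CPM at 0 h, 117 and 110 CPM at 2 h, and 127 and 131 CPM at 12 h on soft. On stiff it held 117 and 114 CPM, 123 and 121 CPM, and 136 and 133 CPM. The 12 h libraries were the highest on both substrates. The log2 fold change at 12 h was small, 0.16 ± 0.05 on soft (edgeR adjusted p = 0.02) and 0.22 ± 0.05 on stiff (edgeR adjusted p = 0.0011). Without soft 0 h replicate 1 or soft 12 h replicate 2 the soft call was lost (edgeR adjusted p = 0.18 and 0.13). Bax, which moves from the cytosol to the mitochondrion, had log2 fold changes of 0.01 ± 0.05 on both substrates at 12 h, with 95% confidence intervals from −0.10 to 0.12 on soft and −0.10 to 0.11 on stiff (edgeR adjusted p = 0.88 and 0.95). Exons of Bak1 overlap those of Ggnbp1 on the other strand (29 to 71 counts). Exons of Bax overlap those of Gm45808 on the same strand, which was not found among the genes counted in either experiment.

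Counted over the family, 2 of 9 members were higher and 0 lower at 2 h on each substrate, Pmaip1 and Bcl2l1 on both, beside 1.31% of all genes higher and 0.649% lower on soft and 1.84% higher and 0.895% lower on stiff. From 2 h to 12 h, 4 of 9 members were called on each substrate, Bcl2l1 and Mcl1 lower and Bcl2l11 and Bak1 higher, beside 31.4% of all genes on soft and 37.5% on stiff. The log2 fold change of Bak1 in that interval was 0.18 on soft (edgeR adjusted p = 0.0082) and 0.14 on stiff (edgeR adjusted p = 0.034). On soft the Bak1 call was lost without soft 12 h replicate 2 or soft 2 h replicate 2, and on stiff it was lost without any one of the 4 stiff libraries at 2 h and 12 h. DESeq2 also lost it on stiff (adjusted p = 0.074). Members not called at 2 h lay between −0.43 (Bmf on soft) and 0.13 (Mcl1 on stiff), with edgeR adjusted p of 0.1 or more, and the Mcl1 value became a call without stiff 2 h replicate 1, where it was 0.18 (edgeR adjusted p = 0.041). From 2 h to 12 h Bmf, Bbc3, Bad and Bax lay between 0.02 (Bax on soft) and 0.34 (Bmf on soft), with edgeR adjusted p of 0.12 or more.

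**Figure D2:**
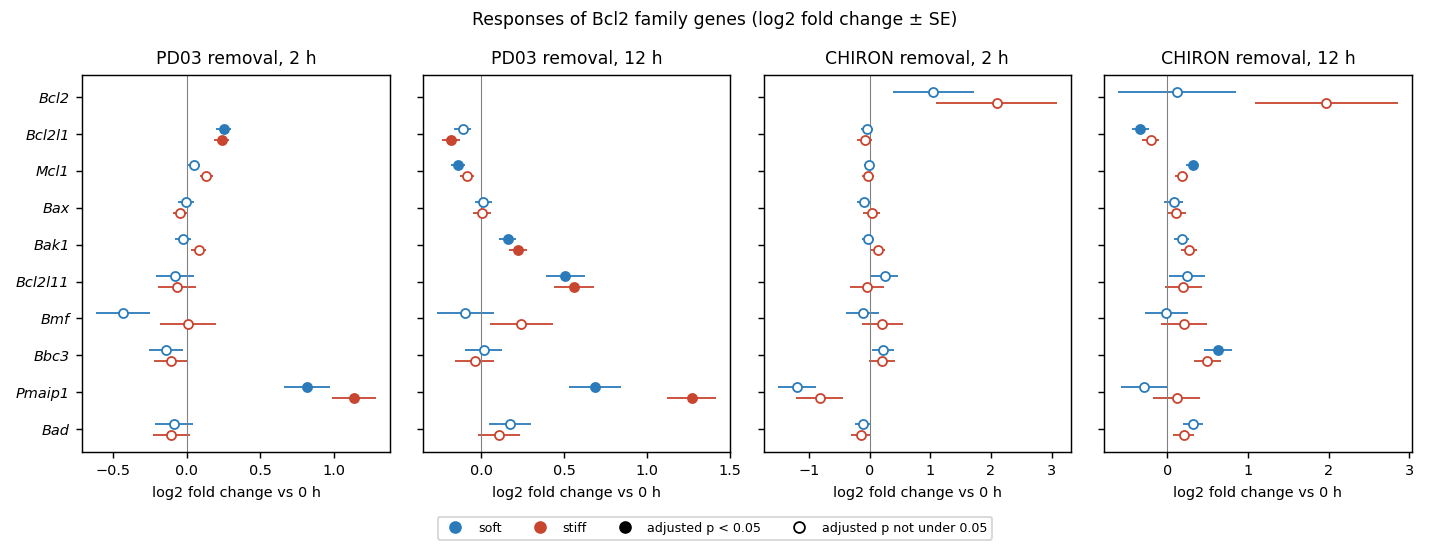
Log2 fold change against 0 h (points) with its standard error (bars) for each member tested, in both experiments at 2 h and 12 h, on soft (blue) and stiff (red) substrates, filled where the edgeR adjusted p was under 0.05. After PD03 removal Pmaip1 reached 1.27 on stiff at 12 h, whereas after CHIRON removal the filled points are Bbc3, Mcl1 and Bcl2l1 on soft at 12 h.

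The second question was whether substrate stiffness changed the family. No member differed between soft and stiff at 0 h, 2 h or 12 h of PD03 removal by edgeR (0 of 9 at each time, with 2, 1 and 1 at an unadjusted p under 0.05), and DESeq2 called 0 as well. Over all genes 0.0298%, 0.134% and 0.776% were called at these times. The closest member was Pmaip1 at 12 h, lower on soft with a log2 fold change of −0.52 (95% confidence interval −0.82 to −0.23, edgeR adjusted p = 0.084). This value turned into a call without a filter on low counts (edgeR adjusted p = 0.021), with only the groups compared in the fit (edgeR adjusted p = 0.039) and without soft 12 h replicate 2, where it was −0.77. Bmf at 0 h was 7.42 and 8.31 CPM on soft and 4.81 and 5.84 CPM on stiff, with no overlap and a log2 fold change of 0.55 (interval 0.19 to 0.91, edgeR adjusted p = 0.46). Bcl2l1 had log2 fold changes of −0.13 at 0 h and −0.12 at 2 h (edgeR adjusted p = 0.58 and 0.51). Over the 3 times Bcl2l11 lay between −0.01 and 0.04, Bbc3 between 0.02 and 0.11 and Bad between −0.02 and 0.04, and Bak1 reached −0.10 at 2 h (edgeR adjusted p of 0.6 or more for all 4). Intervals for Mcl1 lay within −0.17 and 0.09 and those for Bax within −0.12 and 0.14 at all times.

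The difference in response between substrates, soft minus stiff, was tested directly. Again 0 of 9 members were called at 2 h or 12 h by edgeR or by DESeq2, with 0 and 1 at an unadjusted p under 0.05, beside 0.00746% and 0% of all genes. For the rise of Pmaip1 at 12 h the difference was −0.58 on the log2 scale, with an interval of −1.03 to −0.13 (edgeR adjusted p = 0.62). For Bcl2l11 the difference was −0.05, with an interval of −0.40 to 0.30 (edgeR adjusted p = 0.98). All others lay between −0.44 (Bmf at 2 h) and 0.07, with edgeR adjusted p of 0.87 or more.

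**Figure D3:**
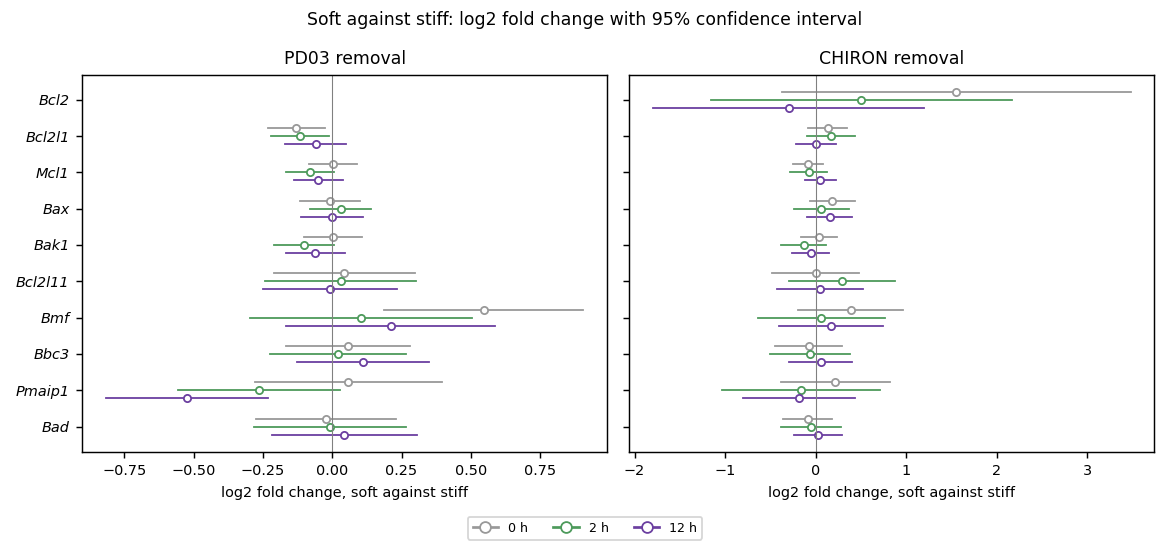
Log2 fold change of soft against stiff (points) with its 95% confidence interval (bars) for each member tested at 0 h (grey), 2 h (green) and 12 h (purple) in both experiments, on axes of different range. In PD03 removal the point farthest below 0 is Pmaip1 at 12 h (−0.52) and the point farthest above it is Bmf at 0 h (0.55), and no point passed the adjusted threshold in either experiment.

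Removal of CHIRON was then examined. At 12 h on soft, 2 of 10 members were higher and 1 lower than at 0 h, beside 10.4% of all 14145 genes higher and 7.95% lower. Bbc3 and Mcl1 rose and Bcl2l1 fell. On stiff no member was called by edgeR, with 4 at an unadjusted p under 0.05 and 0 by DESeq2, beside 9.45% of all genes higher and 8.14% lower. The median log2 fold change of the members was 0.15 on soft and 0.20 on stiff, and that of all genes 0.0086 and 0.0045. Of 6 stem cell markers, 3 rose and 2 fell on soft and 4 rose and 1 fell on stiff at 12 h (mean sum from 4097 to 4499 CPM and from 3956 to 4516 CPM), and of 5 trophoblast markers 1 rose and 1 fell on soft and 1 rose and 2 fell on stiff. Their part in the members' values was not tested.

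Bbc3 held 7.57 and 8.24 CPM at 0 h, 8.76 and 9.63 CPM at 2 h, and 11.4 and 13.2 CPM at 12 h on soft. On stiff it held 8.77 and 7.90 CPM at 0 h, 9.58 CPM in the only library at 2 h, and 9.87 and 13.7 CPM at 12 h. Libraries at 12 h were above those at 0 h on both substrates. The log2 fold change at 12 h was 0.63 ± 0.17 on soft (edgeR adjusted p = 0.015), a fold of 1.54, and 0.50 ± 0.17 on stiff (edgeR adjusted p = 0.056). The stiff value became a call without a filter on low counts (edgeR adjusted p = 0.031) and without stiff 12 h replicate 1, where it was 0.70. Mcl1 held 246 and 247 CPM at 0 h, 231 and 255 CPM at 2 h, and 289 and 323 CPM at 12 h on soft. Its stiff libraries held 270 and 252 CPM, 257 CPM, and 302 and 288 CPM. Here too the 12 h libraries were the highest on both substrates. The log2 fold change was 0.31 ± 0.08 on soft (edgeR adjusted p = 0.011) and 0.18 ± 0.08 on stiff (edgeR adjusted p = 0.15). Bcl2l1 went from 87.1 and 86.3 CPM at 0 h on soft to 88.3 and 79.4 CPM at 2 h and 65.9 and 71.7 CPM at 12 h. On stiff it went from 87.5 and 70.6 CPM to 74.6 CPM and then 63.2 and 73.5 CPM, where 0 h and 12 h overlapped. Its log2 fold change at 12 h was −0.34 ± 0.10 on soft (edgeR adjusted p = 0.03) and −0.21 ± 0.10 on stiff (edgeR adjusted p = 0.19).

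These soft calls depended on single libraries. The calls of Bbc3 and Mcl1 were each lost without soft 0 h replicate 1, soft 0 h replicate 2 or soft 12 h replicate 2, and that of Bcl2l1 without soft 0 h replicate 1, soft 0 h replicate 2 or soft 12 h replicate 1, with edgeR adjusted p between 0.06 and 0.15. With the discarded library in the fit all 3 were lost, and that of Bcl2l1 was also lost with a block by tube number (edgeR adjusted p = 0.069) or by replicate number (edgeR adjusted p = 0.051). The difference in response between substrates at 2 h or 12 h was not called for any member by edgeR or DESeq2, nor was soft against stiff at any time (0 of 10 members, also 0 at an unadjusted p under 0.05), beside 0% of all 14145 genes in each of these 5 tests. Soft against stiff, Bcl2 lay between −0.30 and 1.55 on the log2 scale and the other members between −0.18 (Pmaip1 at 12 h) and 0.39 (Bmf at 0 h). For the difference in response, Bcl2 had −1.05 at 2 h and −1.85 at 12 h, and the other members lay between −0.40 (Pmaip1 at 12 h) and 0.29 (Bcl2l11 at 2 h).

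**Figure D4:**
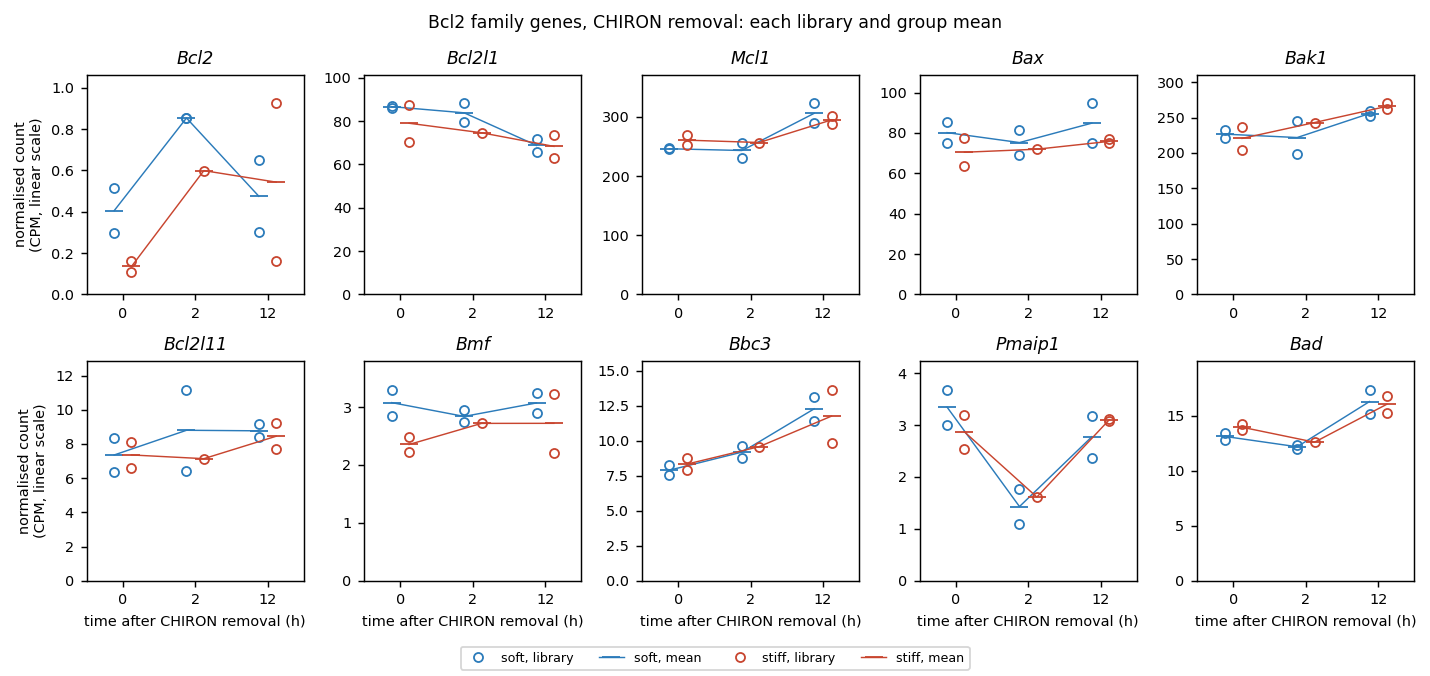
Normalised counts (CPM, linear scale from 0) of the 10 members against hours after CHIRON removal, as open circles for each library and dashes for group means on soft (blue) or stiff (red) substrates, where stiff at 2 h has 1 library. Bbc3 went from 7.57 to 8.77 CPM at 0 h to 9.87 to 13.7 CPM at 12 h, and Pmaip1 stood at 1.09 to 1.76 CPM in the 3 libraries at 2 h, a difference from 0 h that did not pass the test on either substrate.

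At 2 h after CHIRON removal 0 of 10 members were called on either substrate, by edgeR or DESeq2, with 1 at an unadjusted p under 0.05 on each by edgeR, beside 0.12% of all genes higher and 0.0636% lower on soft and 0.0495% in each direction on stiff. The member with that p was Pmaip1. Its soft libraries held 3.69 and 3.00 CPM at 0 h, 1.09 and 1.76 CPM at 2 h (18 and 33 counts) and 2.37 and 3.18 CPM at 12 h. On stiff they held 2.54 and 3.19 CPM, 1.61 CPM, and 3.08 and 3.12 CPM. The 3 libraries at 2 h were the lowest of the 11. The log2 fold change at 2 h was −1.21 ± 0.32 on soft (edgeR adjusted p = 0.17) and −0.83 ± 0.39 on stiff (edgeR adjusted p = 0.7). Without a filter on low counts the soft value, −1.22, was called (edgeR adjusted p = 0.018). From 2 h to 12 h, 2 of 10 members were higher on soft, Mcl1 by 0.33 ± 0.08 (edgeR adjusted p = 0.0085) and Bad by 0.43 ± 0.13 (edgeR adjusted p = 0.029), and 0 were called on stiff (2 at an unadjusted p under 0.05, 0 by DESeq2), beside 17.9% and 10.9% of all genes. The Mcl1 call was lost without soft 12 h replicate 2 or soft 2 h replicate 1, and the Bad call without soft 12 h replicate 1 or either soft library at 2 h. The Bad call was also lost with DESeq2 (adjusted p = 0.063) and with only the groups compared (edgeR adjusted p = 0.065), and both calls were lost with the tube block (edgeR adjusted p = 0.091 for Mcl1 and 0.069 for Bad) and with the discarded library. At 2 h against 0 h Bcl2 had log2 values of 1.05 for soft and 2.1 for stiff, and the remaining members lay between −0.15 (Bad on stiff) and 0.24 (Bcl2l11 on soft), with edgeR adjusted p of 0.69 or more. From 2 h to 12 h Pmaip1 had 0.92 on soft and 0.94 on stiff (edgeR adjusted p = 0.06 and 0.14), Bcl2l1 −0.29 on soft (edgeR adjusted p = 0.064) and Bbc3 0.41 on soft (edgeR adjusted p = 0.11), and the other values not called had edgeR adjusted p of 0.15 or more.

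The remaining members did not pass at 12 h after CHIRON removal. Bcl2l11 ranged from 6.39 to 11.2 CPM over the 11 libraries, with log2 fold changes at 12 h of 0.24 ± 0.22 (soft) and 0.20 ± 0.23 (stiff) (edgeR adjusted p = 0.51 and 0.61). Bmf ranged from 2.21 to 3.30 CPM and Bax from 63.5 to 94.8 CPM, with 0 h and 12 h libraries that overlapped on each substrate. Bad held 12.8 and 13.4 CPM at 0 h and 17.4 and 15.2 CPM at 12 h on soft, with no overlap and a log2 fold change of 0.32 ± 0.13 (edgeR adjusted p = 0.092). Pmaip1 at 12 h had log2 fold changes of −0.29 ± 0.29 (soft) and 0.11 ± 0.29 (stiff) (edgeR adjusted p = 0.54 and 0.84). Bak1 had a log2 fold change of 0.18 ± 0.10 (soft) and 0.27 ± 0.10 (stiff) (edgeR adjusted p = 0.23 and 0.062), and on stiff its 12 h libraries (262 and 270 CPM) were above those at 0 h (204 and 237 CPM). That stiff value became a call without a filter on low counts (edgeR adjusted p = 0.027) and without stiff 0 h replicate 2, where it was 0.38. It also became a call without soft 2 h replicate 1 or soft 2 h replicate 2, which are not in the contrast. Bcl2 on stiff had a log2 fold change of 1.97 ± 0.89 at 12 h (edgeR adjusted p = 0.15) on 18 and 3 counts against 3 and 2. Without stiff 12 h replicate 2 the value was 2.72, which rests on 1 library at 12 h. Since Bcl2 passed the filter on low counts only through libraries other than those of stiff 0 h, the filter favours a rise, and no conclusion is drawn.

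The responses to the 2 withdrawals were compared in 1 model of all 23 libraries, as the 12 h response to PD03 removal minus that to CHIRON removal. On soft 3 of 10 members differed and on stiff 2 of 10, beside 21.7% and 24.3% of all 14375 genes. The experiment and the inhibitor removed cannot be told apart in this test. Pmaip1 responded more to PD03 removal, by 1.01 ± 0.29 on soft (edgeR adjusted p = 0.013) and 1.17 ± 0.30 on stiff (edgeR adjusted p = 0.0043). Mcl1 went the other way, by −0.43 ± 0.09 on soft (edgeR adjusted p = 0.00084) and −0.25 ± 0.09 on stiff (edgeR adjusted p = 0.045). For Bbc3 the difference was −0.59 ± 0.20 on soft (edgeR adjusted p = 0.036) and −0.52 ± 0.21 on stiff (edgeR adjusted p = 0.066). For Bcl2l11 it was 0.29 ± 0.26 on soft and 0.38 ± 0.26 on stiff (edgeR adjusted p = 0.47 and 0.32), so the rise called after PD03 removal was not shown to differ between the withdrawals. Bcl2l1, Bmf, Bad, Bax and Bak1 did not differ on either substrate, with edgeR adjusted p of 0.13 or more. Bcl2, at a few counts per library, had 0.37 ± 1.04 on soft and −2.74 ± 1.20 on stiff (edgeR adjusted p = 0.85 and 0.1). It had failed the filter on low counts in PD03 removal and entered this model only through its counts in CHIRON removal. No conclusion is drawn from its values, of which the stiff one was −3.49 without CHIRON removal stiff 12 h replicate 2. The Pmaip1 call on soft was lost without any one of PD03 removal soft 0 h replicate 2, PD03 removal soft 12 h replicate 2, CHIRON removal soft 0 h replicate 1 or CHIRON removal soft 12 h replicate 1. The Bbc3 call was lost without PD03 removal soft 0 h replicate 2, PD03 removal soft 12 h replicate 1, either CHIRON removal soft 0 h library or CHIRON removal soft 12 h replicate 2, and with DESeq2, where the adjusted p was at the threshold. On stiff the Bbc3 value became a call without PD03 removal stiff 0 h replicate 2 (edgeR adjusted p = 0.029) or CHIRON removal stiff 12 h replicate 1 (edgeR adjusted p = 0.012). With the discarded library 1 call remained, that of Pmaip1 on stiff. The Mcl1 call on stiff was lost in 12 of the fits that left out a library, including those without any one of the 6 soft libraries of PD03 removal, which are not in the contrast.

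The genes around the family were read from lists chosen by function, beside the shares of all genes called, which for PD03 removal at 12 h were 14.1% higher and 15.3% lower on soft and 18.5% and 19.9% on stiff. After PD03 removal, of 11 other Bcl2 family genes tested, 1 rose and 2 fell at 12 h on each substrate (median log2 fold change −0.10 for soft, 0.15 for stiff). Bcl2l14, a distant family member, fell by 1.40 on the log2 scale on soft (edgeR adjusted p = 6.3e-09) and by 1.42 on stiff (edgeR adjusted p = 9.3e-09). Of 20 genes of the apoptosome, caspases, their inhibitors and the mitochondrial channel, 0 rose on either substrate and 6 fell on soft and 9 on stiff, with list medians of −0.09 and −0.18. Those that fell on both were Vdac1, Vdac2 and Vdac3 of the outer membrane channel, Cycs, which encodes cytochrome c, and Casp8, the initiator caspase of death receptors. Casp8 fell by 0.60 on soft (edgeR adjusted p = 0.0062) and by 0.86 on stiff (edgeR adjusted p = 0.00043).

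Genes linked to regulators of the members, with targets of those regulators among them, were called in both directions, beside the same shares of all genes. Of 15 genes of p53 and its targets, 4 rose and 4 fell on soft and 5 rose and 5 fell on stiff after PD03 removal (medians −0.01 and −0.03). Trp53 itself, which drives Bbc3 and Pmaip1 in many cells, rose by 0.21 ± 0.05 on soft (edgeR adjusted p = 0.00093) and 0.23 ± 0.05 on stiff (edgeR adjusted p = 0.00032), Mdm4, Zmat3 and Tnfrsf10b rose with it, and Ccng1, Trp53inp1, Plk2 and Sesn1 fell. Of 12 FoxO and stress response genes, 2 rose and 2 fell on soft and 3 rose and 3 fell on stiff (medians 0.07 and −0.06), so the counts on soft were near those shares. Foxo1, of the factors known to activate Bcl2l11, rose by 0.69 ± 0.11 on soft (edgeR adjusted p = 2.7e-05) and 0.84 ± 0.11 on stiff (edgeR adjusted p = 5.1e-07), and Foxo4 rose on both, while Atf4 and Asns fell. Of 10 genes for the turnover of Mcl1 and Bim, 1 rose and 1 fell on soft and 0 rose and 4 fell on stiff (medians 0.01 and −0.06). Btrc, a ubiquitin ligase subunit that targets Bim, fell by 0.28 on soft (edgeR adjusted p = 0.0062) and by 0.47 on stiff (edgeR adjusted p = 1.9e-05).

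The same lists were read after CHIRON removal, where 10.4% of all genes were higher and 7.95% lower on soft and 9.45% and 8.14% on stiff. Among 10 other family genes tested, 2 rose and 2 fell on soft and 3 rose and 1 fell on stiff (medians 0.04 and 0.17). Bnip3, a mitophagy receptor of the family, rose by 2.65 ± 0.18 on soft (edgeR adjusted p = 1.4e-08) and 2.06 ± 0.17 on stiff (edgeR adjusted p = 2.6e-07). Bid, which links caspase-8 to the mitochondrion, fell by 0.81 on soft (edgeR adjusted p = 5.7e-06) and by 0.77 on stiff (edgeR adjusted p = 1.1e-05), and Bcl2l14 rose by 0.69 and 0.70 (edgeR adjusted p = 0.0027 and 0.0026). Of the 20 apoptosome and caspase genes 0 rose and 1 fell on soft and 1 rose and 0 fell on stiff (medians 0.09 and 0.07), below those shares. Of 15 p53 genes 2 rose and 4 fell on soft and 0 rose and 4 fell on stiff (medians −0.13 and −0.17), with Cdkn1a, Plk2, Trp53inp1 and Aen lower on both. Of 12 FoxO and stress response genes 3 rose and 2 fell on soft and 5 rose and 2 fell on stiff (medians 0.32 and 0.12), and Foxo3, Foxo4 and Foxo6 were among the genes that rose on both, with Foxo3 at 0.55 on soft and 0.50 on stiff (edgeR adjusted p = 6e-05 and 0.00016). Of the 10 turnover genes 2 rose on soft and 1 on stiff and 0 fell (medians 0.13 and 0.13), and Dynll1, which tethers Bim to the cytoskeleton, rose by 0.45 on both (edgeR adjusted p = 0.0015 and 0.0016).

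For the members called at 12 h on both substrates, the genes most alike in pattern were sought over the 12 group means, centred within each experiment, among 13088 genes. Bcl2l11 was most like Pik3r2 (Pearson's r = 0.979), Jade2 (0.974) and Mapk3 (0.973). Pmaip1 was most like Pzp (0.936), Enc1 (0.88) and Brms1 (0.877), and Bak1 most like Sema7a (0.965), Oas2 (0.959) and Podxl (0.955). Between members the highest value was 0.76, for Bad and Bak1, and the lowest −0.797, for Bcl2l1 and Bad. These points share libraries and depth, so the values are a description of these groups.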

How the data were processed

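RNA of E14 mESCs was sequenced after Ribo-Zero depletion and NEXTflex library preparation. The authors deposited raw counts per gene: reads were trimmed with Trim Galore, aligned to GRCm38 (mm10) with TopHat2 2.1.0 and counted with featureCounts 1.5.0 on Ensembl genes, and the strand setting is not given in the sources used here. Another 12 columns in the PD03 removal table matched no sample label and were ignored. Groups followed the sample labels, and the stiff 2 h library that the study discarded was left out. Labels do not say that replicates were separate cultures, so p-values measure only the spread between these libraries, which may be technical.

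Protein-coding genes (GENCODE M21, 19285 and 21695 genes) with at least 10 counts by the filterByExpr rule of edgeR 4.0.16 (minimum total 15, smallest group 2 libraries) were scaled by TMM, and the quasi-likelihood model held the 6 groups of an experiment in R 4.3.3. Both experiments were joined in 1 model for the difference between withdrawals. P-values were adjusted by Benjamini-Hochberg over all genes tested, with a threshold of 0.05, and CPM used TMM library sizes. The biological coefficient of variation was 0.0386 in PD03 removal and 0.0795 in CHIRON removal. On simulated counts with 200 genes changed by a log2 fold change of 1, edgeR recovered 168 for PD03 removal (12 h, soft, 13404 genes) and 156 for CHIRON removal (12 h, soft, 14145 genes), with 9 and 10 false calls. Most changes of the members were smaller than that, and recovery of smaller changes was not simulated. DESeq2 1.42.0 was an alternative, as were its size factors, no filter, all genes, fits of only the groups compared, blocks by replicate or tube number, the discarded library and leaving out each library. Promoter windows were read with Python 3.11.15, and protein sequences were not used here.

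The members, gene lists and tests were chosen with earlier results of these data known. The rule names all 10 members, with those not called given singly or by range, and context genes are those called at 12 h on both substrates in 1 direction, at most 5 per direction and list. Replicates were compared by counts, and no pair of libraries agreed within sampling noise.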

Additional observations from a re-analysis of the deposited data

Results flagged for a closer look

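On soft 3 of 10 members and on stiff 2 of 10 differed in their 12 h response between the withdrawals of PD03 and CHIRON. The shares of all 14375 genes were 21.7% and 24.3%, so the members were near the general rate. The difference itself was tested (edgeR's quasi-likelihood test, Benjamini-Hochberg adjustment), written as log2 values of PD03 removal minus CHIRON removal. Pmaip1 differed by 1.01 on soft (adjusted p = 0.013) and 1.17 on stiff (adjusted p = 0.0043). Mcl1 differed by −0.43 on soft (adjusted p = 0.00084) and −0.25 on stiff (adjusted p = 0.045), and Bbc3 by −0.59 on soft (adjusted p = 0.036). Of 29 alternatives, the Mcl1 call on stiff was lost in 16, that of Bbc3 on soft in 7 and that of Pmaip1 on soft in 5. With the discarded library only the call of Pmaip1 on stiff remained. Inhibitor and experiment were confounded, and they cannot be told apart.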

How the results depend on the processing

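Of 1074 named fold changes under the alternatives, 977 kept direction and side of the threshold, 76 fell short of it, 21 passed it and 0 called values changed sign. Named values were those called, or at an unadjusted p under 0.05, in the main fit, so a change of sign was unlikely from the start. Some alternatives left out a library outside the contrast, which also favours no change. Over all members, 201 of 4409 values changed sign with no call in either fit. Among counts of members called, soft against stiff at 12 h of PD03 removal went from 0 to 1 without the filter and with only the groups compared. For CHIRON removal, 12 h on soft went from 3 to 0 with the discarded library, 12 h on stiff from 0 to 2 without the filter, 2 h on soft from 0 to 1 without the filter, and 12 h against 2 h on soft from 2 to 1 with DESeq2, 4 without the filter, 0 with the discarded library and 0 with the tube block. The difference between withdrawals went from 3 to 0 on soft with the discarded library, and from 2 to 1 on stiff with DESeq2 size factors, no filter and the discarded library. The causes were not tested. Leaving out 1 library gave 1 to 4 for 12 h on soft, 1 to 2 for 2 h on soft, 1 to 3 for 2 h on stiff and 0 to 1 for soft against stiff at 12 h of PD03 removal, 0 to 3 for 12 h on soft, 0 to 2 for 12 h on stiff and 1 to 3 for 12 h against 2 h on soft of CHIRON removal, and 1 to 3 for the difference between withdrawals on each substrate.

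Replicate numbers showed no pairing of libraries: same-numbered deviations had a mean correlation of −0.0025 in PD03 removal (15 pairs of groups) and −0.024 in CHIRON removal (10 pairs). In CHIRON removal the replicate number did not follow the tube number recorded for each library, so these correlations cannot show whether libraries were paired by tube. With a replicate block the difference between withdrawals on stiff gave 1 member instead of 2, and the call of Bcl2l1 at 12 h on soft of CHIRON removal was lost (adjusted p = 0.051). The other counts of members called under the block were within 1.5 times of those without it.

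Counts over all genes moved too. The discarded library took those of 12 h on soft after CHIRON removal from 2599 to 457 and on stiff from 2487 to 461, 12 h against 2 h from 2530 to 372 on soft and from 1544 to 207 on stiff, and the difference between withdrawals from 3124 to 940 on soft and from 3491 to 1219 on stiff. No filter took soft against stiff of PD03 removal from 4, 18 and 104 to 30, 68 and 185 at 0 h, 2 h and 12 h, and that of CHIRON removal from 0 to 17, 54 and 15. The block by tube number took 12 h against 2 h of CHIRON removal from 2530 to 1299 on soft and from 1544 to 736 on stiff. Per library of CHIRON removal Pmaip1 held 18 to 75 counts and Bcl2 2 to 18, and whether more depth would change their calls was not tested.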

Other observations

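The 0 h libraries of both experiments were in the same 2i + LIF medium, and the levels of 8 members did not overlap between them, while those of Bad and Bcl2 did. Bak1 stood at 113 to 119 CPM in the 4 libraries of PD03 removal and at 204 to 237 CPM in the 4 of CHIRON removal, Bax at 178 to 183 CPM and 63.5 to 85.5 CPM, and Mcl1 at 582 to 607 CPM and 246 to 270 CPM. The order of the effectors per kilobase of exon was therefore reversed: within each library the ratio of Bak1 to Bax was 0.395 to 0.490 over 12 libraries of PD03 removal and 1.72 to 2.45 over 11 libraries of CHIRON removal, with no overlap. The difference was not tested, since the experiments were separate. Culture, library preparation and the set of genes counted (35022 in PD03 removal and 48709 in CHIRON removal) cannot be told apart. The ratio of Bcl2l1 to Mcl1 was 0.129 to 0.159 in the PD03 removal experiment and 0.156 to 0.284 in that of CHIRON removal, over the same libraries, 0 h included. In the latter it was 0.209 to 0.264 at 0 h and 0.156 to 0.190 at 12 h.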
